A study of Mus musculus with 2 samples.

Results

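The replication-dependent histone genes of the mouse encode the linker histone H1 and the core histones H2A, H2B, H3 and H4, and they lie in clusters of short genes without introns. They were taken here as all protein-coding genes of the annotation whose symbol starts with Hist1, Hist2, Hist3 or Hist4 followed by h. The rule found 67 genes of 21853 coding genes on the main chromosomes, with 54 in Hist1 on chromosome 13, 10 in Hist2 on chromosome 3, 2 in Hist3 on chromosome 11 and 1 in Hist4 on chromosome 6. By type there were 6 H1, 18 H2A, 18 H2B, 12 H3 and 13 H4 genes. Open chromatin was mapped by DNase-seq, in which DNase I cuts accessible DNA, in thymus from healthy mice of strain B6NCrl at postnatal day 0, with males and females pooled. The series held 1 group with 2 biological replicates, labelled with 1 donor and separate biosamples, so their spread may be partly technical. No treatment, mutation or second condition was part of the design, and no p-value is given. The replicate lists held 154812 and 139702 peaks of 150 bp on mouse build mm10 (GRCm38). In a bulk tissue, fewer cells with an open site and less cutting per cell cannot be told apart. Each peak carries the authors' own score, a whole number from 1 to 150 whose meaning is not given in the sources used here. It never exceeds the peak width in bp, and whether it depends on how many bases of a peak can be mapped is unknown, which limits what a score beside recurring sequence means. Percentiles below give the share of a replicate's own list with a lower score.

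In dividing cells the core histones form the octamer that DNA wraps around, and H1 binds the linker DNA between nucleosomes. Their genes are switched on together in S phase, when newly made DNA has to be packaged, and their messages end in a conserved stem-loop in place of a poly(A) tail. The thymus of a newborn mouse is rich in dividing immature T cells. The sampled tissue was checked by marker genes: all 6 thymocyte genes tested (Cd3e, Cd4, Cd8a, Lck, Rag1 and Ptcra) showed a peak at the promoter in each replicate, neither gene of thymic epithelium (Foxn1, Psmb11) nor of liver (Alb, Apoa1) did, and of the neuronal genes Snap25 did and Syt1 did not. Prss16, a gene of thymic epithelium that was not among the markers and lies beside Hist1, did have one in both replicates, so the epithelial genes do not all lack peaks. The number of reads, and with it the depth of either list, is unknown here.

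The promoters with the strongest peak of their type are printed here, because the letters they carry differ between the types. Each runs from 250 bases before to 50 bases after the annotated start site, 5′ to 3′ along the gene, in build GRCm38. Capitals mark the consensus letters searched on both strands: CCAAT (bound by NF-Y), TATAAA (the core letters of a TATA box), ATTTGCAT (the octamer, bound by OCT1), AACACAAA (the H1 box), GGTCCG (bound by HINFP) and TTTNGCGC (the E2F consensus). The H3 gene with the highest score, Hist2h3b, took it from a peak at its neighbour Hist2h2bb, so Hist1h3g, the H3 gene with the highest score within 300 bp of its own start, is shown, a choice made after the scores were seen.
Hist1h1c (chr13:23738558-23738857, plus strand): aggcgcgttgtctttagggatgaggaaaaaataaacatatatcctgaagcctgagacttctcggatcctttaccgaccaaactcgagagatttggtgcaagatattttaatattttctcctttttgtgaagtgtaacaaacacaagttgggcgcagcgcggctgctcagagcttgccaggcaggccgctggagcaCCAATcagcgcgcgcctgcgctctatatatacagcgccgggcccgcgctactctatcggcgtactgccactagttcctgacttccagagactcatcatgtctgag
Hist1h2ag (chr13:22042895-22043194, minus strand): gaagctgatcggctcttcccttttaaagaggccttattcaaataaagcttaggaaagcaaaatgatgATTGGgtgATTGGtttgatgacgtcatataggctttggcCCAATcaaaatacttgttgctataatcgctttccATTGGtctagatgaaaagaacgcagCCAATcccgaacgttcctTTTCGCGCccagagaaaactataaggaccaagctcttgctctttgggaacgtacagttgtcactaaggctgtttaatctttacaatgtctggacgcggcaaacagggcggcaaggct
Hist2h2bb (chr3:96269502-96269801, plus strand): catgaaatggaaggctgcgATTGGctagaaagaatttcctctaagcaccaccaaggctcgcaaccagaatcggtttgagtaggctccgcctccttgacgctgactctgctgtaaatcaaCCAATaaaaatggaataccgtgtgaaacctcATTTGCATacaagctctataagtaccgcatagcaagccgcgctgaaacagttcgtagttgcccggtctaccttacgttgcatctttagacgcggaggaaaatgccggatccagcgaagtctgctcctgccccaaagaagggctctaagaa
Hist1h3g (chr13:23535172-23535471, plus strand): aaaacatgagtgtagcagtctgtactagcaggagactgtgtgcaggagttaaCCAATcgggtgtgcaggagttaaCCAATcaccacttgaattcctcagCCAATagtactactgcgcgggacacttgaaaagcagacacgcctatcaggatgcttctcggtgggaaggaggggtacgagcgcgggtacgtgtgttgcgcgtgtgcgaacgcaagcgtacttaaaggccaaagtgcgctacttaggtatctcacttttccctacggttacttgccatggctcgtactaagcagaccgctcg
Hist1h4c (chr13:23698405-23698704, minus strand): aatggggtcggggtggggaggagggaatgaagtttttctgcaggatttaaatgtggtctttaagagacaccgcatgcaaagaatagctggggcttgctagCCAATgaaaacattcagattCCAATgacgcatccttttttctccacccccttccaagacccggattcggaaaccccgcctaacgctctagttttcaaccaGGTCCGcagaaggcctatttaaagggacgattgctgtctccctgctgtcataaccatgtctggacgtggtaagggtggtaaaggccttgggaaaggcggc

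A second set is printed because these promoters had no peak. Hist1h2ba encodes the testis H2B, and Hist1h4m and Hist1h4n are H4 genes that lie in copies of one stretch of DNA. Between the printed windows of Hist1h4m and Hist1h4n, 1 of 300 bases differed, G286A, counted from 1 at the 5′ end with the base of Hist1h4m first.
Hist1h2ba (chr13:23934107-23934406, minus strand): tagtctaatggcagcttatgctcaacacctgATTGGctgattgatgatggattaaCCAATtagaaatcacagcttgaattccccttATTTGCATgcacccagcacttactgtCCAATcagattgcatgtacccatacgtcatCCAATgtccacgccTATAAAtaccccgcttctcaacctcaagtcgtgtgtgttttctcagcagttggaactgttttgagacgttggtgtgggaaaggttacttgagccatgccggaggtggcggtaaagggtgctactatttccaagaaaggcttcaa
Hist1h4m (chr13:21811496-21811795, plus strand): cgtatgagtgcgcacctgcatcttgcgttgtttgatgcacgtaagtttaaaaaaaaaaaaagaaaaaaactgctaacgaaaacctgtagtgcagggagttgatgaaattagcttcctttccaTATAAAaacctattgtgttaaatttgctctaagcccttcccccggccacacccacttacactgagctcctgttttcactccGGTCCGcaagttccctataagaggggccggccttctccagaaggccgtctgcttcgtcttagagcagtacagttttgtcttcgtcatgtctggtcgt
Hist1h4n (chr13:21832147-21832446, minus strand): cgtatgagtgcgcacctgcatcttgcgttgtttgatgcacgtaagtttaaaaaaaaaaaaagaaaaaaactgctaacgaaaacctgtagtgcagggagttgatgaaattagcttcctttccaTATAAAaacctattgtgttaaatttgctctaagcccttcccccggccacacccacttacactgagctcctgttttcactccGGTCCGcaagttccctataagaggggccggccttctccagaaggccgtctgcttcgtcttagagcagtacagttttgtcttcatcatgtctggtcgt

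Most histone genes had open chromatin at their promoters, and the peaks there ranked among the strongest of each list. A promoter peak, with its midpoint within 1000 bp of a start site, was present in both replicates at 58 of 67 histone genes (86.57%), and in all coding genes the share was 62.2%. By replicate, 88.06% and 86.57% of histone genes had one (mean 87.3% ± 1.06, SD, n = 2), and 64.61% and 64.05% of the other coding genes did (mean 64.3% ± 0.396, SD, n = 2). The strongest promoter peak of a histone gene scored between 52 and 138 in replicate 1 and between 53 and 138 in replicate 2, with medians of 124 and 126. At the other coding genes with a peak the medians were 114 and 121. The mean percentile over both replicates had a median of 96.23 in histone genes, with quartiles of 93.69 and 97.8, and a median of 94.25 in other coding genes, with quartiles of 83.17 and 97.47. The 2 distributions overlap, and of these quantiles the lower quartiles differ most. Both scores were above 100 at 51 of the 58 histone genes. That count was not made for the other coding genes, whose medians of 114 and 121 also lie above 100.

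**Figure D1:**
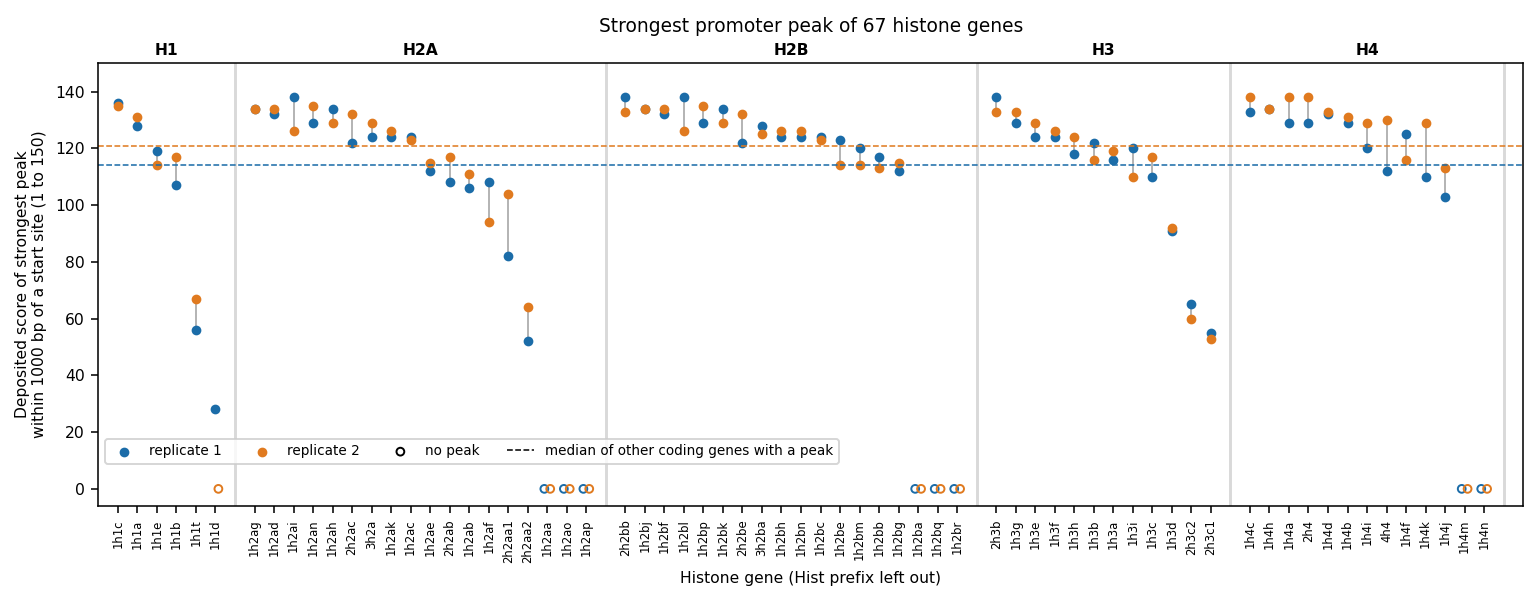
Deposited score of the strongest promoter peak (y axis, 1 to 150) for each of 67 histone genes (x axis), grouped by type and ordered by mean score, with 1 point per replicate and open circles for no peak. Most points lie above 100, the dashed lines mark the medians of other coding genes (114 in replicate 1, 121 in replicate 2), and 8 genes have open circles in both replicates.

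The 6 H1 genes ranged from among the strongest to among the weakest promoters. Hist1h1c, a somatic H1, had the highest scores, 136 and 135 in replicates 1 and 2. Hist1h1a followed with 128 and 131, and Hist1h1b had 107 and 117. Hist1h1e had 119 and 114, but that peak lay 807 and 827 bp after its start, past the stop codon, and its peak just before the start codon scored 105 and 113. Hist1h1t, which encodes the H1 of spermatocytes, had its strongest peak at 56 and 67, and that peak lay 597 and 557 bp into the gene, inside its coding sequence. Within 600 bp before the Hist1h1t start codon, replicate 1 had no peak and replicate 2 had 1 with a score of 36.

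Hist1h1d, another somatic H1 gene, was the only histone gene with a promoter peak in 1 replicate alone, a peak of score 28 in replicate 1 located 929 bp after the annotated start. Its start codon lies 1828 bp downstream of that start site, and the peaks nearest to the start codon scored 122, at 39 bp before it in replicate 1, and 120, at 19 bp before it in replicate 2. The nearest RefSeq start site lay 1770 bp downstream of the one used, beside those peaks. Counted from start codons in place of start sites, 59 of 67 histone genes had a peak within 1000 bp in both replicates. Of the other coding genes 44.62% had one counted that way, and 62.16% counted from start sites. A similar gap affected Hist1h2be, an H2B gene whose annotated start lay 35138 bp from its start codon, beside Hist1h1e. At the start codon of Hist1h2be the scores were 123 and 118. The H3 gene Hist1h3f had its start codon 433 bp from the annotated start and no RefSeq start within 100 bp. Its replicate 1 score of 124 came from the promoter peak of the neighbouring Hist1h2bh. The peaks nearest before its own start codon, at 94 and 54 bp, scored 116 and 126. For 61 of the 67 genes a RefSeq start lay within 100 bp of the start site used.

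Promoter peaks were present in both replicates at 15 of the 18 H2A genes. Hist1h2ag led with 134 in each replicate, followed by Hist1h2ad with 132 and 134. Hist1h2ai with 138 and 126 and Hist1h2an with 129 and 135 came next with equal means. The weakest were Hist2h2aa2 with 52 and 64, Hist2h2aa1 with 82 and 104, and Hist1h2af with 108 and 94. Hist2h2aa1 had the largest difference between replicates of all histone genes, 22 score units, against a median difference of 5. Without a peak in either replicate were Hist1h2aa, Hist1h2ao and Hist1h2ap.

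The H2B genes likewise numbered 15 of 18 with a promoter peak in both replicates. Their scores ran from 112 to 138 in replicate 1 and from 113 to 135 in replicate 2. Hist2h2bb had 138 and 133, Hist1h2bj had 134 and 134, and Hist1h2bf had 132 and 134. The lowest scores were those of Hist1h2bg with 112 and 115, Hist1h2bb with 117 and 113, and Hist1h2bm with 120 and 114. Those 3 differed from the strongest by more than the median difference between replicates. Hist1h2ba, Hist1h2bq and Hist1h2br had no peak.

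All 12 H3 genes had promoter peaks in both replicates, but at 3 of them the strongest peak lay past the stop codon. Hist2h3b scored 138 and 133 through a peak 997 and 937 bp after its start, which is the promoter peak of the neighbouring H2B gene Hist2h2bb. Its own peak, 83 and 63 bp before its start codon, scored 99 and 107. Hist1h3g followed with 129 and 133, at 111 bp before its start in both replicates, and Hist1h3e with 124 and 129. The weakest H3 genes were Hist2h3c1 with 55 and 53, Hist2h3c2 with 65 and 60, and Hist1h3d with 91 and 92. For Hist2h3c1 and Hist2h3c2 the peaks lay 766 and 876 bp after the start site, past the stop codon.

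The H4 genes had the highest median percentile of the types, 97.54, compared with 96.59 for H2B, 96.23 for H2A, 94.52 for H3 and 94.07 for H1, while the lists of the types overlap. Of 13 H4 genes, 11 had promoter peaks in both replicates. Hist1h4c had 133 and 138, and Hist1h4h had 134 and 134. Hist1h4a and Hist2h4, in separate clusters, each had 129 and 138. The lowest were Hist1h4j with 103 and 113, Hist1h4k with 110 and 129, and Hist1h4f with 125 and 116. Hist1h4m and Hist1h4n had none.

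Most of these peaks lay just before the start site. At histone genes with a peak in both replicates, the midpoint of the strongest peak was upstream of the start at 51 of 58 in replicate 1 and 46 of 58 in replicate 2, with a median of 94.5 and 86.5 bp upstream. In other coding genes it was upstream at 9538 of 13543 in replicate 1 and 9169 of 13543 in replicate 2, with a median of 48 and 41 bp upstream. An upstream midpoint was thus common in coding genes at large. With positions upstream of the start written as negative, the median by type was 94 and 74 bp for H1, -123 and -127 bp for H2A, -135 and -128 bp for H2B, -58.5 and -24 bp for H3, and -57 and -53 bp for H4. Where annotation gives no 5′ leader the start site and the start codon coincide, and this limits what such distances mean for single genes. The strongest peaks of the 2 replicates overlapped at 55 of the 58 histone genes, a count that was not made for the other coding genes. Across these 58 histone genes the replicate scores had a Spearman's rho of 0.794, and across other coding genes 0.934. The scores of histone genes span a narrower range, with percentile quartiles of 93.69 and 97.8, compared with 83.17 and 97.47. The part of that range in the lower rho was not tested. Genes are not independent replicates, and paired histone genes share peaks.

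The 9 histone genes without a promoter peak in both replicates fell into 3 kinds. Hist1h1d had its peaks at the start codon, as described. Hist1h2ba and Hist1h2aa, the testis H2B and H2A genes, form a divergent pair at the far end of Hist1, and their nearest peaks were over 8 kb away, at 8225 and 8895 bp from the start of Hist1h2ba. The other 6, Hist1h2bq, Hist1h2ao, Hist1h4m, Hist1h4n, Hist1h2ap and Hist1h2br, are consecutive genes at the end of the first Hist1 block, arranged as 2 mirrored sets of an H2A, an H2B and an H4 gene. Repeated sequence was measured by counting all words of 31 bases in the genome on both strands, and words found more than once are called recurring. In the 300 bases upstream of the start sites of those 6 genes, 100% of words recurred. Upstream of Hist1h2ba and Hist1h2aa and of Hist1h1d, 0% did.

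The mirrored sets spanned 5.54 kb (Hist1h2bq to Hist1h4m) and 5.76 kb (Hist1h4n to Hist1h2br), with 99.4% and 99.6% of words recurring and no peak in either replicate. The nearest peak to Hist1h4n was weak, with a score of 29 in replicate 1 at 1345 bp and 19 in replicate 2 at 1405 bp. A second duplicated group, in Hist2, held the 4 weakest promoters of that cluster. Upstream of Hist2h3c1, Hist2h3c2, Hist2h2aa2 and Hist2h2aa1, 98.5%, 93.0%, 76.3% and 66.3% of words recurred. The peaks that gave these 4 genes their scores lay on sequence with 0% recurring words, at 306 to 876 bp from the start sites. The handling of reads from recurring sequence is unknown here, and the part of recurring sequence in the missing and weak peaks was not tested.

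**Figure D2:**
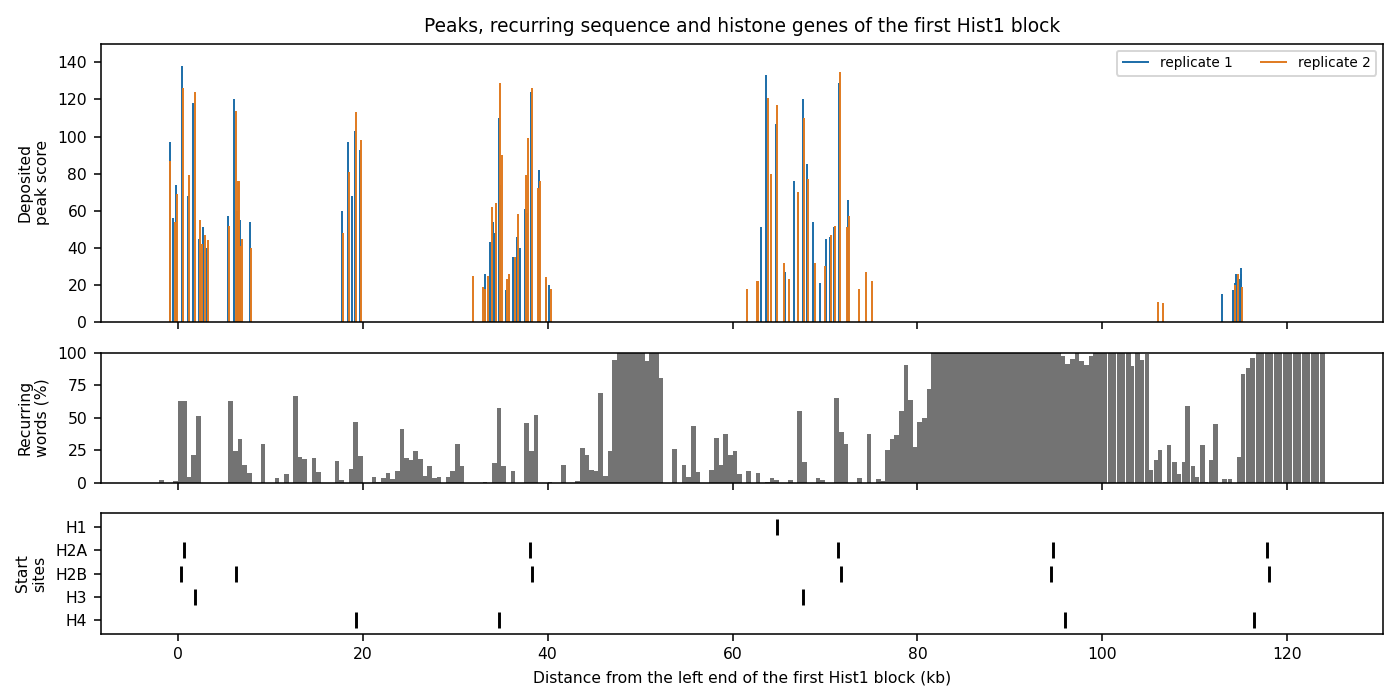
The first Hist1 block along its length in kb, with deposited peak scores of both replicates (top), the percentage of recurring 31-base words in windows of 500 bp (middle) and the start sites of its 18 histone genes by type (bottom). The 6 genes at the right, without peaks in either replicate, lie where nearly all words recur.

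Over 50% of the upstream words recurred at 10 of 67 histone genes (14.93%) and at 7.248% of other coding genes. Of the 57 histone genes with less recurrence, 54 (94.74%) had a promoter peak in both replicates, and of the other coding genes with less recurrence 66.3% did. Of the 10 histone genes above that limit 4 had one, and of the other coding genes above it 9.246% did.

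Core histones of one type are known to have nearly the same coding sequence, and recurring words were common downstream of the start. A median of 71.48% of words recurred in the 300 bases after the start at histone genes, and 0% at other coding genes. Within the coding sequences themselves the median was 90.45% for H3, 88.6% for H2A, 86.05% for H2B and 77.7% for H4, while for H1, whose genes are less alike, it was 16.53%.

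Peaks flanked the coding sequences on both sides. Within 600 bp before the start codon, 55 of 67 histone genes had a peak in both replicates, with median top scores of 124 and 126. Within 600 bp after the stop codon, 50 of 67 (74.63%) had one, with lower median top scores of 68 and 67. Inside the coding sequence 8 of 67 (11.94%) had a peak in both, near the 9.811% of the other short coding genes described below. No H3 gene of 12 had a peak inside its coding sequence in either replicate, and of the 6 H1 genes 3 had one in both.

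For comparison, 846 other coding genes have a genomic span from start to stop codon no longer than that of the longest histone gene, 672 bp. Of these 846, 17.38% had a peak before the start codon in both replicates, 9.811% inside the coding sequence and 6.265% after the stop codon. Of the 55 histone genes with a peak before the start codon, 46 (83.64%) also had one after the stop codon, and 6 (10.91%) had one inside the coding sequence. Of the 147 such other genes, 34 (23.13%) had a peak after the stop codon and 52 (35.37%) had one inside. Some of these peaks belong to neighbouring histone genes. Counting only peaks over 500 bp from every other histone gene's start site and start codon, 47 of 67 histone genes (70.15%) had a peak after the stop codon in both replicates. Recurring words are dense in the coding sequences and rare on both sides, with a median of 0% in the 300 bases before the start codon and in the 300 bases after the stop codon, and their part in the positions of the peaks was not tested.

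**Figure D3:**
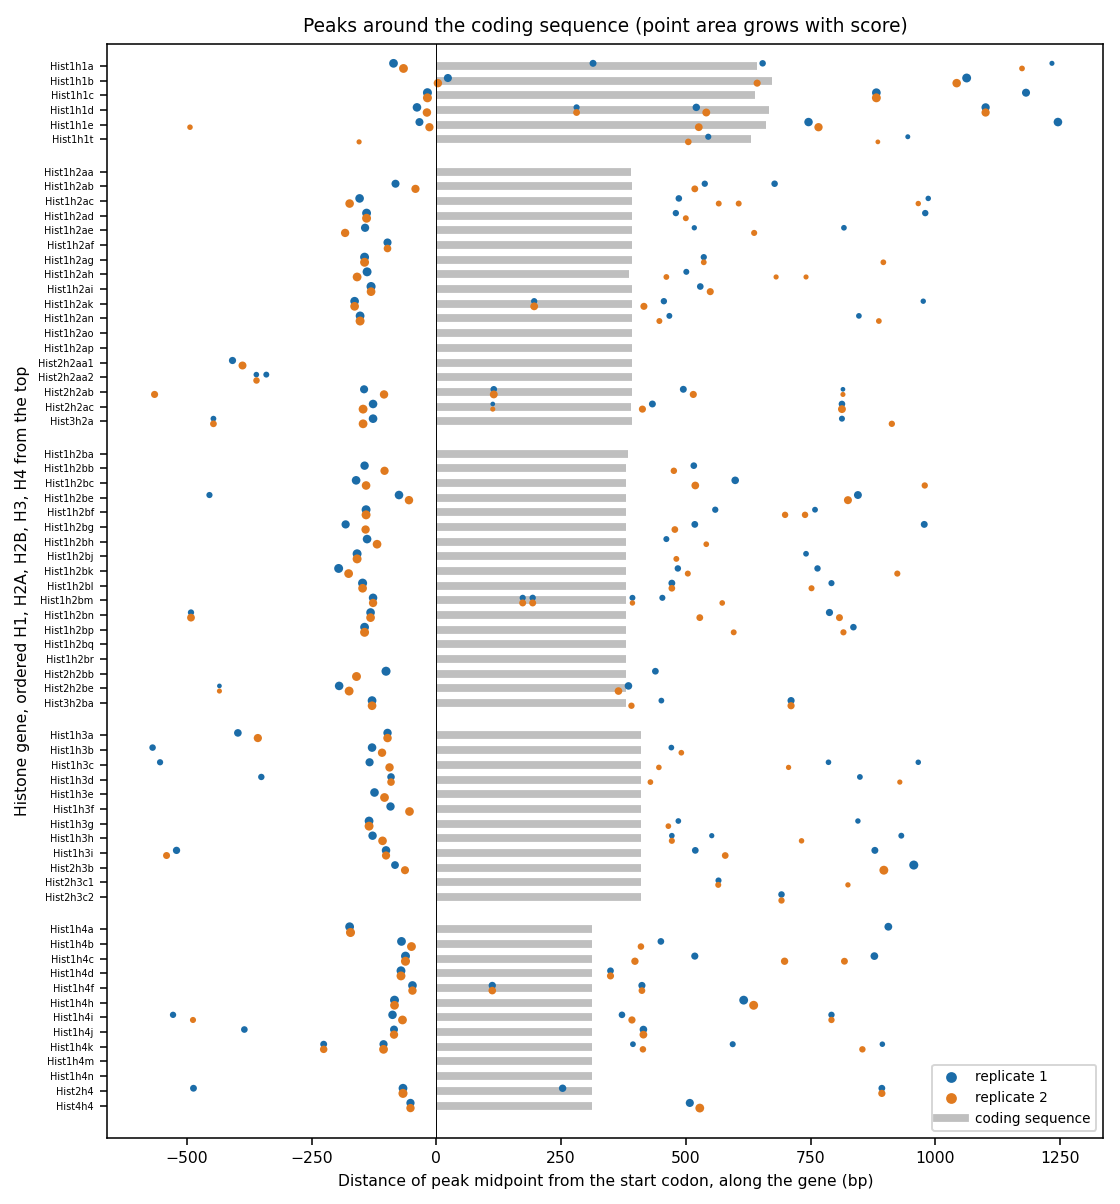
Peak midpoints (points, 1 colour per replicate, area growing with score) by distance in bp from the start codon for each of 67 histone genes (rows), with the coding sequence as a grey bar. Peaks stand before the start codon at 55 genes and after the stop codon at 50 genes in both replicates, and the grey bars are mostly empty.

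By type, the peaks after the stop codon had the highest median scores at H1 genes. All 6 H1 genes had one in both replicates, with median top scores of 118 and 113, while the medians were 81 and 83 for H4, 70 and 63 for H2B, 61.5 and 57.5 for H2A, and 51 and 53 for H3. At Hist1h1b the downstream peak, 392 bp and 372 bp past the stop codon, scored 133 and 121 and exceeded the peak at the start of the gene, 107 and 117. At Hist1h1c it lay 244 bp past the stop codon in both replicates and scored 126 and 133, close to the 136 and 135 at the promoter. At Hist1h1d it scored 113 and 112, at 436 bp past the stop codon. Hist1h1t was the lowest H1 gene, with 32 and 28. Single core histone genes reached the same level. Hist1h4h had 131 and 134 at 305 and 325 bp past the stop codon, above the mean of every H1 gene and over 2 kb from any other histone gene's start. Hist2h3b had 138 and 133, through the promoter peak of Hist2h2bb. Hist4h4, an H4 gene on its own in its cluster, had 108 and 130 at 197 and 217 bp past the stop codon, and 112 and 115 before its start codon, so the stronger of its 2 peaks differed between replicates.

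The messages of these genes end at a stem-loop that is bound by the stem-loop binding protein SLBP, and it is shown because it places the 3′ end of the gene relative to those peaks. The pattern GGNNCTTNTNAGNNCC was searched in the 200 bases after the stop codon on the gene's strand. It was found at 65 of 67 histone genes, 22 to 59 bases after the stop codon with a median of 31, and at 8 of the 21578 other coding genes with an annotated stop codon (0.03707%). Hist1h2an and Hist2h2be had no match. There were 8 distinct stem-loops, and the commonest was shared by 41 genes. The most frequent forms are printed, each from 1 gene, with capitals where a base differs from the commonest form. The second form belonged to 9 genes, the third to 8 and the last 2 forms to 2 genes each.
Hist2h3c2 (chr3:96238485-96238500, minus strand): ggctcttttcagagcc
Hist2h2ab (chr3:96220333-96220348, plus strand): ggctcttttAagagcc
Hist4h4 (chr6:136803998-136804013, minus strand): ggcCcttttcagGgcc
Hist2h4 (chr3:96262939-96262954, minus strand): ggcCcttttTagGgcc
Hist1h4j (chr13:21735437-21735452, plus strand): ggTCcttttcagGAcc
The peaks past the stop codon that were far from other histone genes had a median midpoint 207 and 203.5 bp after the stop codon, beyond the stem-loops. Peaks are 150 bp wide, and some covered the stem-loop. At Hist1h4d the midpoint lay 38 bp past the stop codon in both replicates, and the stem-loop lay 37 bases past it.

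The consensus letters of the promoters differed by type. The searched windows had a median GC content of 45.67% at histone genes and 56.0% at other coding genes, and the shares were not matched for it. CCAAT was found in 56 of 67 histone promoters (83.58%), and in 38.25% of the promoters of all coding genes in windows of the same length. All 18 H2A and all 18 H2B promoters held it, as did 11 of 12 H3 and 5 of 6 H1 promoters, and 4 of 13 H4 promoters. At least 3 copies were present in 33 histone promoters (49.25%) and in 3.461% of other coding promoters, with 16 of 18 H2B, 12 of 18 H2A and no H4 promoter among them. The Hist1h2ag promoter printed above carries 5, counted over both strands.

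GGTCCG, the letters of the H4 factor HINFP, was found in 12 of 13 H4 promoters and in 10.43% of all promoters. It was in no H1 or H2A promoter, in 1 of 18 H2B and in 2 of 12 H3 promoters. In all 12 H4 promoters the letters were on the gene's own strand, starting 11 to 80 bases before the start site with a median of 49. Of the 10 that had a promoter peak, the letters lay inside the strongest peak at 10 in replicate 1 and at 8 in replicate 2. In the other 2, Hist1h4h and Hist4h4, the strongest peak of replicate 2 was the one past the stop codon, at 701 and 564 bp from the start. Hist1h4a, with scores of 129 and 138, had no match in its window. Hist1h4m and Hist1h4n, without a peak, did have the letters, as the printed sequences show.

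ATTTGCAT, the octamer known from H2B promoters, was found in 8 of 18 H2B and 7 of 18 H2A promoters and in none of the other types, compared with 1.689% of all promoters. Divergent H2A and H2B genes share most of the searched window, so their letters are counted at both genes. TTTNGCGC was found in 7 H2A and 7 H2B promoters and in none of the other types, again compared with 1.689%. TATAAA was found anywhere in the window, on either strand, in 37 histone promoters (55.22%) and in 12.79% of all promoters. On the gene's strand and starting 20 to 45 bases before the start site, where a TATA box usually lies, it was found in 8 histone promoters (11.94%) and in 2.713% of other coding promoters. In the printed Hist1h2ba and Hist1h4m windows it starts farther out from the annotated start. The annotated start of Hist1h2ba is its start codon, as at other histone genes without an annotated 5′ leader. At such genes the 20 to 45 bases are counted from the start codon, so the count of 8 may miss TATA boxes. AACACAAA was found in 4 histone promoters, of which 1 was an H1 promoter, and in 1.437% of all. The testis pair Hist1h2ba and Hist1h2aa, without peaks, held the octamer, CCAAT and TATAAA. A match is a description of the letters and says nothing of binding here.

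**Figure D4:**
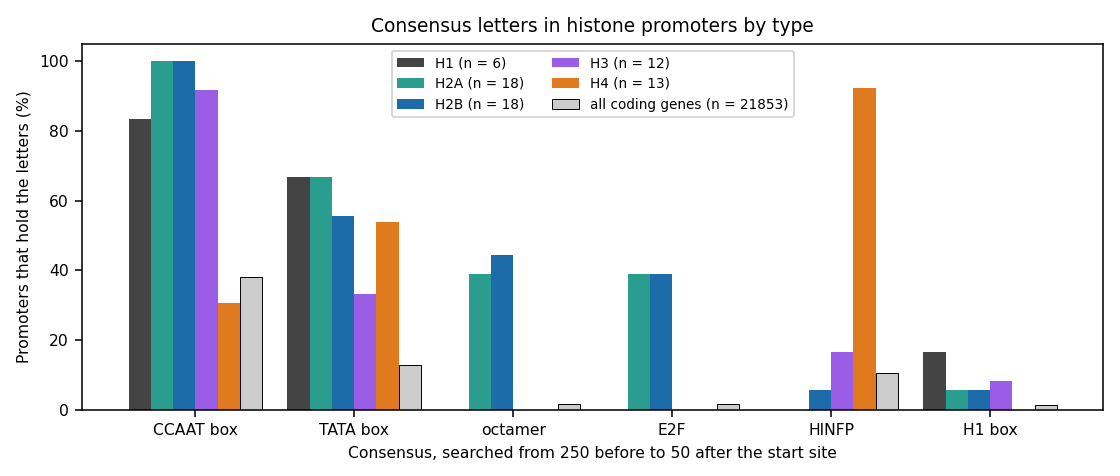
Percentage of promoters (y axis) that hold each consensus (x axis) from 250 bases before to 50 after the start site, for the 5 histone types and all 21853 coding genes. CCAAT is in all H2A and H2B promoters, the HINFP letters are in 12 of 13 H4 promoters, and the octamer and E2F letters occur among histone genes in H2A and H2B promoters alone.

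Divergent pairs, in which genes start close together on opposite strands, made up most of the H2A and H2B genes. There were 13 pairs, 12 of an H2A with an H2B gene and 1 of an H2B with an H3 gene, Hist1h2bh and Hist1h3f. The pair with H3 rests on the annotated start of Hist1h3f, which lies 433 bp from its start codon. The H2A and H2B start sites were 176 to 306 bp apart, with a median of 274.5 bp. In 9 of the 12 pairs a peak lay between the start sites in both replicates, with a median top score of 129 in each replicate. The range was 112 to 138 in replicate 1 and 115 to 135 in replicate 2. Counted singly and not as pairs, the share with a promoter peak was 83.33% for H2A and 83.33% for H2B. Divergent pairs of other coding genes were not counted, so whether a peak between the starts is more frequent in histone pairs was not tested. The pairs Hist1h2bl with Hist1h2ai (138 and 126) and Hist1h2ag with Hist1h2bj (134 and 134) were among the highest, and Hist1h2ae with Hist1h2bg (112 and 115) was the lowest. In 8 of these 9 pairs there was a single peak for both genes, so a pair is 1 measurement. The exception was Hist2h2ac with Hist2h2be, which had 2.

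H2A genes outside pairs, 6 in number, all had a peak in both replicates, with median scores of 107 and 107.5, compared with 129 and 129 for the paired H2A genes that had one. Of those 6, Hist2h2aa1 and Hist2h2aa2 lie in duplicated sequence. The H2B genes outside pairs, 5 in number, had medians of 123 and 114, compared with 126.5 and 127.5 for the paired H2B genes that had one. Among those 5 is Hist1h2be, counted with 123 and 114 at its annotated start. At its distant start codon the scores were 123 and 118. The pair without any recurring upstream sequence and without a peak was Hist1h2ba with Hist1h2aa, and the other pairs without a peak were both in the mirrored sets.

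**Figure D5:**
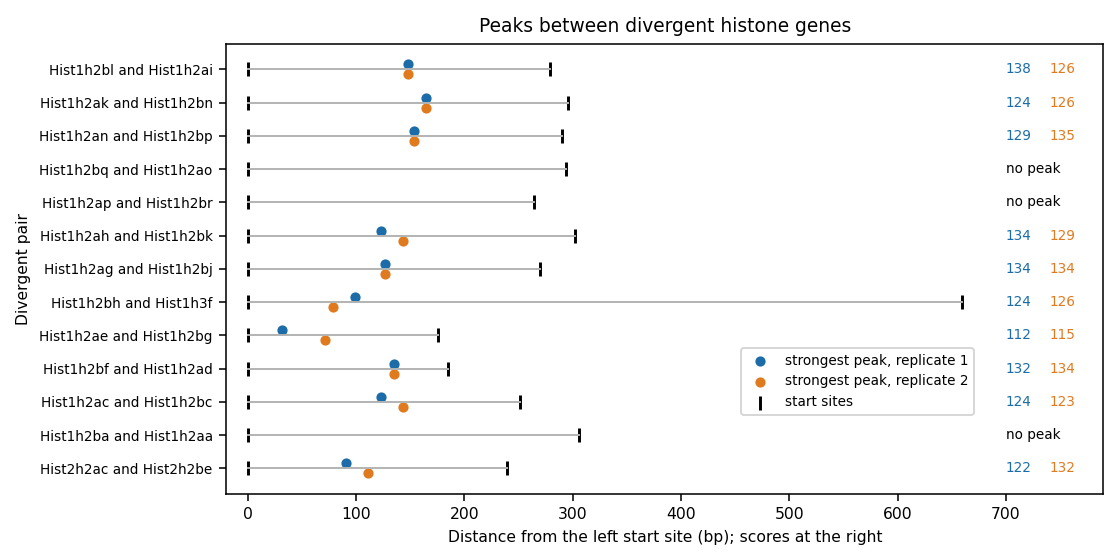
Strongest peak between the start sites of 13 divergent histone gene pairs (rows), by distance in bp from the left start site, with scores at the right in the colours of the replicates. In 10 pairs the peak lies between the start sites in both replicates, and 3 pairs have no peak.

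Hotspots, the authors' wider enriched regions, covered fewer histone start sites than the peaks reached. A start site lay in a hotspot in both replicates at 37 of 67 histone genes (55.22%), and in all coding genes the share was 50.6%, so the histone share is near the background. All 37 had a −log10 q at the deposited cap of 100 in both replicates. Among other coding genes with a start site in a hotspot, 92.36% (replicate 1) and 93.13% (replicate 2) also reached that cap. Reaching it was thus common in coding genes at large. The hotspots over histone starts were narrower, with median widths of 626 and 662.5 bp, compared with 997 and 1266 bp at other coding genes. Another 21 histone genes had promoter peaks in both replicates without such a hotspot in both. Downstream of their starts a median of 92.6% of words recurred, compared with 58.9% at the 37, and the part of recurrence in the hotspot edges was not tested.

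Members up to 100 kb apart were joined into 7 blocks that spanned 425.8 kb. Hist1 made up 4 of them, and all 10 genes of Hist2, both of Hist3 and the 1 of Hist4 had a promoter peak in both replicates. The first Hist1 block had 12 of 18 such genes, the second 5 of 5, the third 28 of 29 and the fourth, the testis pair, 0 of 2. The blocks held 170 peaks shared between replicates, 39.93 per 100 kb. The main chromosomes as a whole held 3.814 per 100 kb, a ratio of 10.47. Blocks were drawn from histone gene to histone gene, so they are dense in start sites by construction. A higher density than on whole chromosomes follows in part from that, and no comparison matched for start sites was made. Windows of 1000 bp around histone start sites covered 21.73% of the block span and held 62.79% of block peaks in replicate 1 and 57.46% in replicate 2.

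Between those windows the blocks held 80 peaks in replicate 1 and 97 in replicate 2, of which 55 and 50 overlapped a peak of the other replicate. They were weaker, with median scores of 42 and 32. The strongest of them lay past the 3′ end of Hist1h1b (chr13:21779416-21779565, score 133 in replicate 1), at the start codon of Hist1h2be and at the start codon of Hist1h1d. The only other coding gene in the blocks was Hfe, which encodes a regulator of iron uptake, and its promoter peak scored 104 and 110.

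The gaps between the Hist1 blocks differed from one another. From the first to the second block, over 197.6 kb, a promoter peak was present in both replicates at all 3 coding genes (Zfp184, Pom121l2 and Prss16), and there were 30.87 shared peaks per 100 kb. Prss16 encodes a serine protease of thymic epithelium. From the second to the third block, over 1487 kb, lay 36 vomeronasal receptor genes, which function in pheromone sensing, and no receptor gene had promoter peaks in both replicates, with 0 in replicate 1 and 3 in replicate 2. The other 4 coding genes there (Zfp322a, Abt1, Btn1a1 and Btn2a2) all did, and the density was 6.185 per 100 kb. From the third to the fourth block, over 169.4 kb, 0 of 5 coding genes (Trim38, Slc17a1, Slc17a2, Slc17a3 and Slc17a4) had one, at 4.723 shared peaks per 100 kb, and the testis pair lies on the far side of that stretch.

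The genes that work with the clustered histone genes had promoter peaks at all members of 3 lists. Of histone variant genes, which are made outside S phase as well, 11 of 11 had one in both replicates, as did 24 of 24 regulators and processing factors and 8 of 8 chaperones, and over all coding genes the share was 62.2%. Among variants H2afv, an H2A.Z gene, had 135 and 147, H2afz, the other H2A.Z gene, had 134 and 143, and H3f3b, an H3.3 gene, had 126 and 145. The weakest were H2afy2, a macroH2A gene, with 36 and 26, and H1fx, a linker variant, with 75 and 56. Among regulators Nfya, a subunit of the CCAAT-binding factor NF-Y, had 136 and 146, Casp8ap2, which encodes the processing factor FLASH, had 136 and 143, and Hinfp, the factor of H4 promoters, had 137 and 142. Npat, the coactivator of histone genes in S phase, had 132 and 141, and Slbp had 119 and 127. Among chaperones Asf1b had 134 and 143, Daxx had 134 and 142, and Hat1, an acetyltransferase of new H4, had 136 and 138.

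Histone pseudogenes were not counted as members. Hist1h2aj and Hist3h2bb-ps had peaks within 1000 bp, with scores of 120 and 114 and of 124 and 129, which are the scores of their coding neighbours Hist1h2bm and Hist3h2a. Hist1h2al, away from the clusters, had none.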

How the data were processed

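DNase-seq of newborn thymus was deposited as peaks and hotspots called for each of 2 replicates on mm10, per the text that accompanies the files. No source used here gives the callers, thresholds, aligner, read length or depth. The deposited peak score is a whole number from 1 to 150, used only to rank peaks within a list. For hotspots the deposited value is −log10 q, with a cap of 100.

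Start sites came from GENCODE M21 (54327 starts of coding transcripts). Promoter peaks are those centred within 1000 bp of any start site of the gene, and distances use 1 primary start site. Shared peaks overlap by at least 1 bp. Histone genes at most 100 kb apart form a block, and divergent pairs start within 1000 bp of each other. Sequences were read from RefSeq GRCm38, in windows of 250 bases before to 50 after the start site, and words of 31 bases were counted over all chromosomes and unplaced sequences. The counting steps were tested on simulated data.

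The genes, lists and comparisons were chosen with earlier results of these data known. The named genes are the 3 strongest and 3 weakest of each type, those without a peak in both replicates, pair members and the 3 strongest of each pathway list. Npat, Slbp, H2afy2 and H1fx, and the peaks past the stop codon, were named outside that rule, after their values were seen. Of 25 regulators listed, 24 were in the annotation, since Cpsf3l and Ints11 are names of 1 gene. Word recurrence, stem-loop positions and peaks by position in the gene were added after the peaks were seen. With 1 group there was no test between groups, and genes are not replicates. Alternatives were each replicate alone, stronger peaks, other windows, 1 start site, any overlap, hotspots, other block gaps, a reciprocal overlap, start codons and peaks written without a decimal point. Python 3.11.15, numpy 2.4.6, pandas 2.3.3 and matplotlib 3.10.9 were used.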

Additional observations from a re-analysis of the deposited data

How the results depend on the processing

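Across the alternatives the histone genes with a promoter peak in both replicates numbered 55 to 60, except 37 where a hotspot had to cover the start site. The share in other coding genes, 62.16%, was 64.05% to 64.61% with 1 replicate left out, 56.34% with the stronger 50% of peaks, 59.98% with a window of 500 bp, 65.93% with 2500 bp, 58.04% with 1 start site per gene, 50.57% with hotspots and 44.62% with start codons. The density ratio of the blocks, 10.47, was 8.916 to 10.47 with 1 replicate left out, 13.12 with the stronger 50% of peaks, 12.01 with blocks joined over gaps of up to 50 kb and 7.905 over gaps of up to 250 kb. By their construction, these settings change how many peaks, start sites or bases are counted. The median percentile stayed between 95.57 and 96.88, and 10 divergent pairs had a peak in both replicates under all 4 alternatives run. The 43 variant, regulator and chaperone genes gave 34 to 43. Start codons and peaks written without a decimal point were chosen as alternatives after seeing the data. No paired analysis was possible because there is 1 group. Depth is unknown, so a missing peak may lie below what these libraries could detect.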
